A study of Mus musculus with 6 samples.

Results

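The neuropeptides neurotensin (Nts), galanin (Gal), cholecystokinin (Cck) and PACAP (Adcyap1) were followed together with a neurotensin receptor (Ntsr2) and the PACAP receptor (Adcyap1r1). These 6 genes, of 18204 in the deposited count table, were taken by symbol, and all 6 were found. The choice was made with their cell types, their positive cells, their UMIs per cell and the higher Nts of the IDOL KO libraries already in view, so levels by cell type and by single cell are given as descriptions without a test. The data were Drop-seq profiles of dissociated hypothalamus from C57BL/6J mice aged 8 weeks, with 3 libraries labelled IDOL KO and 3 labelled WT. IDOL, the product of Mylip, is a ubiquitin ligase that sends lipoprotein receptors to the lysosome. The labels named neither the deleted part of Mylip nor the number of animals behind a library, and did not say on which of the 2 Drop-seq days a library was made. A p-value here thus sets the difference between the groups against the spread of libraries within them, which may be technical. An effect of the day was not tested.

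Each of the peptides is cut from a larger precursor by convertases, stored in dense-core vesicles and released from neurons. Neurotensin acts on G-protein-coupled receptors and on sortilin, and in the hypothalamus it is known for lowering feeding and body temperature. Galanin receptors mostly inhibit adenylate cyclase, and galanin is found in neurons that control feeding, sleep, growth hormone and reproduction. Cholecystokinin is both a gut hormone of satiety and a brain peptide. PACAP, a relative of VIP, raises cyclic AMP through its receptor and is abundant in excitatory hypothalamic neurons. The neurotensin receptor encoded by Ntsr2 is known as a glial receptor of low affinity.

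The 6 genes lie on 6 chromosomes in the GENCODE M21 annotation of GRCm38, all as protein-coding genes. Nts spans chr10:102481756-102490486 on the minus strand, Gal chr19:3409915-3414544 on the minus strand and Cck chr9:121489824-121495694 on the minus strand. Adcyap1 spans chr17:93199017-93206537, Ntsr2 chr12:16653382-16660227 and Adcyap1r1 chr6:55451978-55501451, all on the plus strand. The promoters of the 4 peptide genes are shown. Transcripts of Nts, Cck and Adcyap1 met in the same neuron cluster, as described further on. Gal was scarce in that cluster (6 of 132 cells) and met Nts in other clusters. The sequences come from RefSeq on GRCm38.p6 and run 5′ to 3′ on the strand of the gene, from 250 bases before to 25 bases after the annotated start. They cover chr10:102490394-102490668 (Nts), chr19:3414520-3414794 (Gal), chr9:121495670-121495944 (Cck) and chr17:93198767-93199041 (Adcyap1, the first of 2 annotated starts). Capitals mark TGACG, the core of the cyclic AMP response element, on either strand, and in Nts also an AP-1 site, TGANTCA.
Nts: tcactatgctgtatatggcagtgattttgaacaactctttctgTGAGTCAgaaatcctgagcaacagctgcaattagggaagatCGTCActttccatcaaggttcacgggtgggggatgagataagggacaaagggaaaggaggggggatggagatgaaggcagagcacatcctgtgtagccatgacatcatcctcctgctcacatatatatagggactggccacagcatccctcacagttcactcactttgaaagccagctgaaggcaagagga
Gal: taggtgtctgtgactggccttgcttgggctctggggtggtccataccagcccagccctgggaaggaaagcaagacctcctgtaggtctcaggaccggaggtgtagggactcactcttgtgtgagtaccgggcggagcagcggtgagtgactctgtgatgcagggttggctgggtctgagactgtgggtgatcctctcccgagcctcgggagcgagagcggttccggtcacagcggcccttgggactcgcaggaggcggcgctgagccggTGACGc
Cck: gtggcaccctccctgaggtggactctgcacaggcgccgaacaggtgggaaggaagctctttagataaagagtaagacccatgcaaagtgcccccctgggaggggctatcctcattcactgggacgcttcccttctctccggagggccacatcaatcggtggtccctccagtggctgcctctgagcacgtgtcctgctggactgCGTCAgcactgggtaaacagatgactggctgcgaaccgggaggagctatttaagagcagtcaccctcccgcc
Adcyap1: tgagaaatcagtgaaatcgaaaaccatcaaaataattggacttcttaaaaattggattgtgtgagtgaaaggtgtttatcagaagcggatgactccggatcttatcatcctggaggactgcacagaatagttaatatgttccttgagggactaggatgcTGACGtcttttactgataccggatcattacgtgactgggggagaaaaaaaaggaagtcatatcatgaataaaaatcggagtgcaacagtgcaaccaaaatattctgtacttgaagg

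The TGACG core was found in the 300-base windows of all 4 peptide genes and in that of neither receptor gene. It stood 166 bases before the start in Nts, 47 before in Cck, 91 before in Adcyap1 and 20 after in Gal. Of the 32851 RefSeq windows of that length, 20.8% held it on either strand, so a match is common. The AP-1 site of Nts lay 207 bases before the start, and 7.81% of all windows held such a site. The complete element TGACGTCA, which contains the core, was in none of the 6 genes' windows and in 1.79% of all windows. These matches describe letters and do not show binding.

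The table held 13994 cell barcodes, of which 9333 were kept as cells, 1036 to 1946 per library with 1514439 to 3644549 UMIs. Mylip had 2, 0 and 0 UMIs in the IDOL KO libraries, against 68, 27 and 43 in the WT libraries. Of the named classes, neurons were the most numerous (3118 cells, 2067 of them GABAergic and 470 glutamatergic), followed by astrocytes (1639) and oligodendrocytes (1246). Neuron clusters led by Pomc, by Agrp and Npy, and by Oxt and Avp were found, all genes known from hypothalamic neurons. No cell barcode was shared between libraries among kept cells, and 3 were among all barcodes. The mitochondrial transcript mt-Nd3 stood apart by group, with 169, 382 and 44 UMIs in IDOL KO neurons and 0 in each WT library, and its part in the results below was not tested.

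Neurotensin was a rare transcript. Nts had 879 UMIs in 176 of the 9333 kept cells (1.89%), and neurons held 96.0% of these UMIs. A UMI marks 1 captured transcript molecule, and levels are given as CPM, the UMIs of the gene per 1000000 UMIs of all genes in the same cells. The level in neurons was 125 ± 107 CPM (SD over 6 libraries), and 4.72% of neurons had a UMI (exact 95% interval 4.00 to 5.52%, counting error only, as for every interval here). In oligodendrocytes, which are not known to make the peptides, 0.401% of cells had a Nts UMI, with a median depth of 1068 UMIs against 1434 in neurons. In astrocytes the share was 0.0610% at a median of 626 UMIs. Endothelial cells (1.26%, 0.651 to 2.19%, median 665 UMIs) and mural cells (1.95%, 0.637 to 4.50%, median 671 UMIs) had a higher share than astrocytes of about the same depth, with at most 2 UMIs in any such cell. Most of these cells came from a cluster of 126 endothelial-named cells (6 cells, 4.76%) and one of 132 mural-named cells (5 cells, 3.79%). The largest endothelial cluster had 4 of 703 (0.57%). With each cell set to 500 UMIs, the share expected was 0.814% in endothelial cells, 0.761% in mural cells, 0.00800% in astrocytes, 0.0710% in oligodendrocytes and 2.73% in neurons.

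Nts was spread over both transmitter types. GABAergic neurons had 133 ± 172 CPM and glutamatergic neurons 148 ± 111 CPM (SD, n = 6 libraries), so the means differed by far less than the spread. In WT 1, 2 and 3 GABAergic neurons had 67.3, 11.4 and 16.9 CPM, below 133, 65.4 and 274.5 CPM in glutamatergic ones. In IDOL KO 2 and 3 they were above, at 148 and 468 against 38.6 and 78.7 CPM. In IDOL KO 1 they were below, at 85.1 against 295 CPM. Glutamatergic neurons had a Nts UMI in 11.3% of cells (8.56 to 14.5%) and GABAergic ones in 4.11% (3.30 to 5.06%). Their median depths were 2406 and 1604 UMIs. The 17 neuron clusters are called by their leading genes, from which the 6 genes were left out. Among them, the share of cells with a Nts UMI was highest in the glutamatergic cluster led by Foxb1, a factor of the mammillary region, and Cpne9, with 31 of 132 cells (23.5%). Next came the GABAergic cluster led by Ghrh, the growth-hormone-releasing hormone, and Th, the dopamine enzyme tyrosine hydroxylase, with 12 of 85 cells (14.1%). Pooled levels in these clusters were 442 and 468 CPM, and 1 library had no Nts in each. It was WT 2 in the first, with only 8 cells there, and WT 3 in the second, with only 3 cells. In the Ghrh and Th cluster, only 2 of the 12 Nts cells also had a Ghrh UMI, while 7 had a Th UMI. The GABAergic cluster led by Gnrh1, Dlx1 and Gad2 held 36.4% of all Nts UMIs in 27 of 472 cells, and 19.1% without IDOL KO 3. Gnrh1, the gene of gonadotropin-releasing hormone, led that cluster through only 4 cells with a UMI, and none of the 27 Nts cells was among them, while 23 of the 27 had Gad2.

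A few cells carried most of the neurotensin transcripts. The 24 cells with at least 10 Nts UMIs, all neurons, held 60.9% of the UMIs. They numbered 4, 7 and 9 in IDOL KO 1, 2 and 3, against 3, 0 and 1 in WT 1, 2 and 3. These groups did not overlap, and how many of all genes do so in this measure was not counted. UMIs per cell were in view when the genes were chosen. By the sums of Gad1, Gad2 and Slc32a1 against Slc17a6, 15 of the 24 cells were GABAergic, 7 glutamatergic and 2 tied. The richest cell, in IDOL KO 3, had 168 Nts UMIs, 1.52% of its 11023 UMIs, and the next richest in that library had 19. It belonged to the cluster led by Gnrh1, Dlx1 and Gad2, with 18 Gad2 UMIs and no Slc17a6 or Gnrh1. That cell held 52.0% of the Nts of its library. The richest cell held 15.2% and 14.2% of Nts in IDOL KO 1 and 2, against 15.3%, 42.1% and 34.5% in WT 1, 2 and 3.

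**Figure D1:**
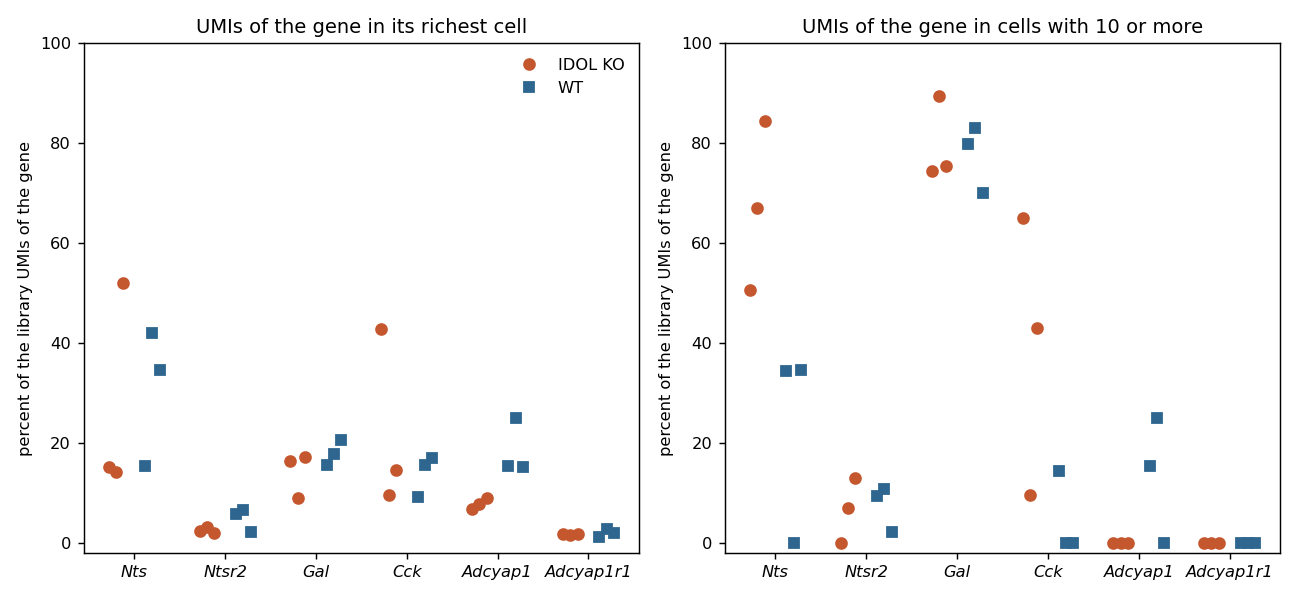
Share of each gene's UMIs that sits in the richest cell (left) and in cells with at least 10 UMIs of it (right), in percent of the library's UMIs of that gene. Each point is 1 library, IDOL KO circles left of WT squares. The highest points on the left are Nts in IDOL KO 3 (52.0%) and Cck in IDOL KO 1 (42.8%), and cells rich in Gal hold 70.0 to 89.4% of Gal in every library.

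Per library, Nts had 66.9, 56.4 and 119 CPM over all cells of IDOL KO 1, 2 and 3, against 44.7, 12.6 and 29.98 CPM in WT 1, 2 and 3. The groups did not overlap, as for 3.88% of the 13059 genes tested over all cells in that direction, and IDOL KO 3 stood highest through the cell just described. Without the richest cell of each library, the levels were 56.7, 48.4 and 57.0 CPM in IDOL KO, against 37.9, 7.26 and 19.6 CPM in WT. With the richest cell of each gene and library left out in the same way, 4.33% of the 13059 genes had all IDOL KO libraries above the WT libraries. A positive cell had on average 4.82, 4.70 and 9.23 Nts UMIs in IDOL KO, against 3.98, 1.73 and 2.5 in WT. These groups did not overlap either, and how many of all genes do so in this measure was not counted. UMIs per cell were in view when the genes were chosen, so these values are a description.

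**Figure D2:**
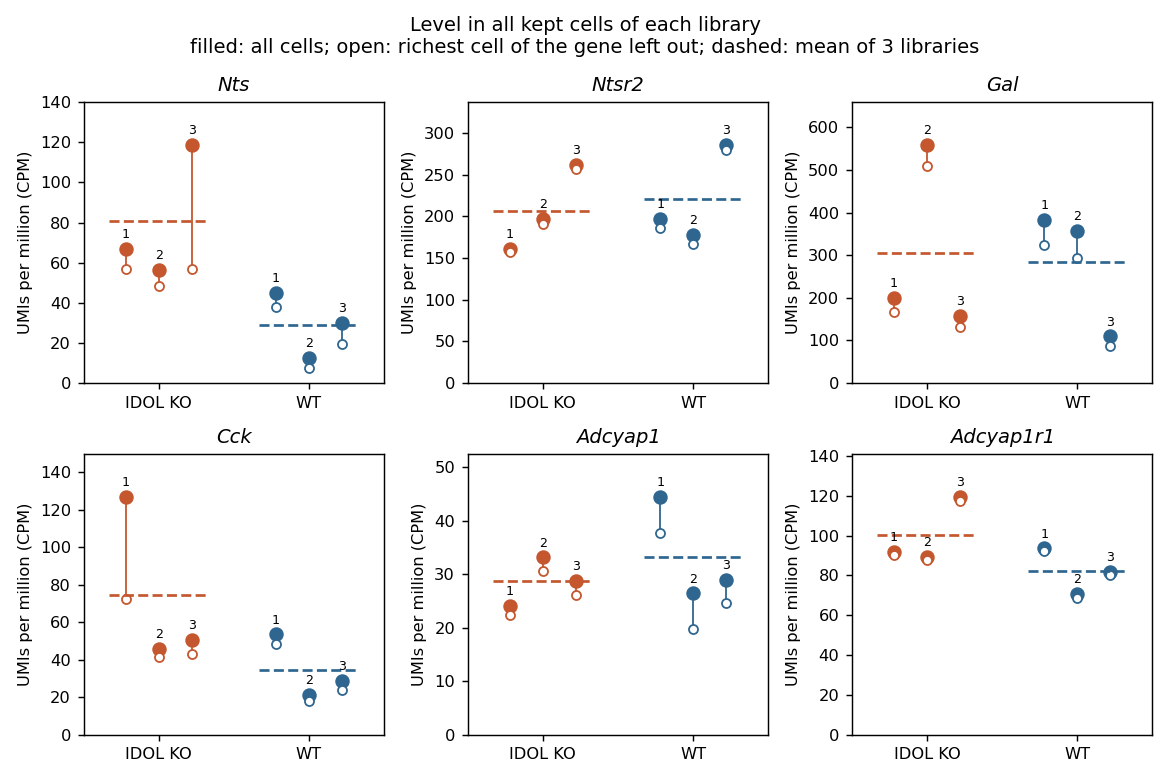
Level of each gene over all kept cells, in CPM, for the 3 IDOL KO libraries (left) and the 3 WT libraries (right), numbered by replicate. Filled points are all cells, open points leave out the richest cell of that gene in the library, and dashed lines are group means. Leaving out 1 cell brings Nts in IDOL KO 3 to 57.0 CPM and Cck in IDOL KO 1 to 72.6 CPM.

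Galanin was concentrated in a few kinds of neurons. Gal had 4588 UMIs in 462 cells, and neurons held 99.1% of the UMIs at 632 ± 354 CPM (SD, n = 6). A Gal UMI was found in 13.5% of neurons (12.3 to 14.8%) and in 0.401% of oligodendrocytes. GABAergic neurons had 761 ± 470 CPM and glutamatergic neurons 334 ± 222 CPM, ranges that overlapped. The 123 cells with at least 10 Gal UMIs were all neurons and held 82.0% of the UMIs.

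The cluster led by Ghrh and Th had the highest Gal level, 4451 ± 1836 CPM over the 6 libraries, with 40 of 85 cells positive. That cluster held only 3 cells of WT 3, and 14 to 21 of each other library. Of its 32 cells with a Ghrh UMI, 29 (90.6%, from 6 libraries) also had Gal, and of its 54 cells with Th, 26 (48.1%) did. The richest Gal cell of the data, with 217 UMIs in WT 1, was in that cluster. The cluster led by Oxt and Avp, the hormones of the posterior pituitary, had Gal in 44 of 81 cells (54.3%) at 663 ± 353 CPM. It too held only 3 cells of WT 3. The cluster led by GOLT1A, Tac2, the gene of neurokinin B, and Nhlh2 had it in 42 of 82 cells (51.2%), and 41 of the 42 also had Tac2. In the cluster led by Gnrh1, Dlx1 and Gad2, 120 of 472 cells (25.4%) were positive, and they held 37.1% of all Gal UMIs. Of these 120 cells, 102 had Gad2, 63 had Dlx1 and 4 had Gnrh1. In the Sst cluster, 71 of 450 cells (15.8%) had Gal, and in the Pomc cluster 26 of 147 (17.7%). In the cluster led by Vip and Grp, 0 of 67 cells had a Gal UMI, which allows a share of up to 4.48%.

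By library, Gal had 199, 559 and 157 CPM over all cells of IDOL KO 1, 2 and 3, against 383, 357 and 109 CPM in WT 1, 2 and 3. The groups overlapped, and both held a library with a low level. The richest cell held 9.0 to 17.1% of Gal in the IDOL KO libraries and 15.6 to 20.5% in the WT libraries. The number of cells with at least 10 UMIs was 13, 46 and 14 in IDOL KO, against 32, 12 and 6 in WT.

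Cholecystokinin was the one peptide with a large share outside neurons. Cck had 854 UMIs in 243 cells, and neurons held 74.8% of the UMIs at 90.1 ± 32.0 CPM (SD, n = 6). Nearly all of the rest came from 8 cells of IDOL KO 1 that formed the cluster named pituitary. They held 202 Cck UMIs, 23.7% of the total and 65.0% of that library's. All 8 carried Cga, the common subunit of the glycoprotein hormones (436 UMIs), and 5 carried Tshb, the thyrotropin subunit (22 UMIs). Of the neuronal genes, they had 6 Snap25 UMIs in 3 cells and no Syt1. Their Cck counts were 133, 27, 16, 10, 6, 4, 4 and 2 UMIs, and no other library had such cells.

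Among neurons, the Foxb1 and Cpne9 cluster had the highest Cck level, 531 ± 216 CPM (SD, n = 6), in 54 of 132 cells (40.9%). It was followed by the GABAergic cluster led by Vipr2, a receptor of VIP and PACAP, and Prokr2, both genes of the suprachiasmatic clock. That cluster had 270 ± 177 CPM in 65 of 406 cells (16.01%), and positive cells came from all 6 libraries. The ranges of both clusters overlapped. In the Vipr2 and Prokr2 cluster, 15 cells had a Vip UMI and none of these had Cck, which allows up to 20% at this number. In the cluster led by Vip and Grp, 3 of 67 cells (4.48%) had Cck. No Cck UMI was seen in the Pomc cluster (0 of 147 cells, allowing up to 2.04%) or in the Agrp and Npy cluster (0 of 144 cells, allowing up to 2.08%). Oligodendrocytes had Cck in 0.401% of cells and astrocytes in 0.122%.

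Over all cells, Cck had 127, 45.9 and 50.4 CPM in IDOL KO 1, 2 and 3, against 53.5, 21.1 and 28.9 CPM in WT 1, 2 and 3. Without the pituitary cells, IDOL KO 1 had 44.8 CPM, and the 3 IDOL KO libraries lay within 44.8 to 50.4 CPM. The groups overlapped either way, since WT 1 was above IDOL KO 2 and 3. In neurons alone the values were 81.5, 102 and 142 CPM in IDOL KO, against 91.3, 44.5 and 79.3 CPM in WT.

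PACAP transcripts were higher in glutamatergic than in GABAergic neurons, through 2 of the 4 glutamatergic clusters. Adcyap1 had 483 UMIs in 253 cells, and neurons held 96.5% of them. Glutamatergic neurons had 223 ± 39.3 CPM and GABAergic neurons 21.1 ± 9.87 CPM (SD, n = 6), and the lowest glutamatergic library (149 CPM) was above the highest GABAergic one (36.0 CPM). A UMI was found in 156 of 470 glutamatergic neurons (33.2%, 28.9 to 37.7%) and in 66 of 2067 GABAergic ones (3.19%, 2.48 to 4.05%), at median depths of 2406 and 1604 UMIs. Oligodendrocytes had it in 0.161% of cells.

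Within the glutamatergic neurons, the Foxb1 and Cpne9 cluster had 582 ± 180 CPM, with 65 of 132 cells positive, and every library had at least 369 CPM. The cluster led by Tac1, the gene of substance P, and Pmch, the gene of melanin-concentrating hormone, had 246 ± 64.6 CPM, with 89 of 237 cells positive. The highest library in the Tac1 and Pmch cluster (304 CPM) was below the lowest in the Foxb1 and Cpne9 cluster. In the other 2 glutamatergic clusters PACAP was scarce. The Oxt and Avp cluster had it in 2 of 81 cells (2.47%), both from 1 library with 1 UMI each, and in the smallest, of 20 cells, none had it, which allows up to 15%. Few cells were rich in PACAP transcripts. The highest counts were 25 UMIs in a cell of WT 1 and 10 UMIs in a cell of WT 2, both in the Tac1 and Pmch cluster, and no other cell reached 10. Though in a cluster named glutamatergic, the first had 10 Gad2 and 3 Slc17a6 UMIs, and the second 5 Slc17a6 and no Gad2.

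By library, Adcyap1 had 24.1, 33.1 and 28.7 CPM over all cells of IDOL KO 1, 2 and 3, against 44.5, 26.4 and 28.9 CPM in WT 1, 2 and 3. The groups overlapped. The richest cell held 6.78 to 8.97% of Adcyap1 in the IDOL KO libraries and 15.1 to 25% in the WT libraries. These ranges did not overlap, and how many of all genes do so in this measure was not counted. UMIs per cell were in view when the genes were chosen, so the ranges are a description. Without its richest cell, WT 1 had 37.6 CPM.

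The neurotensin receptor was an astrocyte transcript. Ntsr2 had 3160 UMIs in 1457 cells, and astrocytes held 89.3% of the UMIs at 2094 ± 188 CPM (SD, n = 6). Of 1639 astrocytes, 1203 had a UMI (73.4%, 71.2 to 75.5%). The level was 2054, 1872 and 2127 CPM in astrocytes of IDOL KO 1, 2 and 3, against 1920, 2207 and 2381 CPM in WT 1, 2 and 3. Both astrocyte clusters had like levels, 2060 ± 281 and 2116 ± 252 CPM. Single cells mattered little, since the richest held 1.97 to 3.15% of Ntsr2 in the IDOL KO libraries and 2.1 to 6.67% in the WT libraries.

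Outside astrocytes the receptor was low. In tanycytes, the glia that line the third ventricle, the level was 89.9 ± 66.7 CPM, and 1 cell of IDOL KO 3 held 14 of that library's 20 UMIs in the class. In OPC, the oligodendrocyte precursors, the level was 66.4 ± 46.5 CPM. With cells set to 500 UMIs, the expected share was 63.9% in astrocytes, 3.23% in OPC, 3.02% in tanycytes, 1.56% in oligodendrocytes and 0.683% in neurons. The neuronal share was thus below that of oligodendrocytes, and the part of free RNA in both was not tested. Among neuron clusters the highest share, 15 of 82 cells (18.3%), was in the one led by Ptgds and Apoe, of which Apoe is known from astrocytes.

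The PACAP receptor was shared between glia and neurons. Adcyap1r1 had 1393 UMIs in 1110 cells, 37.3% of them in astrocytes, 46.4% in neurons and 9.62% in OPC. The level was 372 ± 56.7 CPM in astrocytes, 247 ± 70.5 CPM in OPC, 136 ± 113 CPM in newly formed oligodendrocytes and 96.2 ± 23.9 CPM in neurons. The ranges of astrocytes and OPC overlapped, and neurons, at most 137 CPM in a library, lay below both. The newly formed oligodendrocytes, only 66 cells with 17 UMIs, ran between 0.0 and 254.7 CPM by library and overlapped OPC and neurons. Oligodendrocytes had 5.42 ± 3.35 CPM and microglia 2.59 ± 6.35 CPM. With cells set to 500 UMIs, the share was 16.7% in astrocytes, 11.9% in OPC, 6.85% in newly formed oligodendrocytes, 4.94% in neurons, 0.243% in oligodendrocytes and 0.151% in microglia.

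Within neurons the PACAP receptor did not follow the transmitter type. GABAergic neurons had 98.8 ± 27.5 CPM and glutamatergic neurons 73.6 ± 7.36 CPM, with overlapping ranges. Between 26.5 and 32.1% of cells were positive in the clusters led by Oxt and Avp, Ghrh and Th, Hdc and Prph, Agrp and Npy, Pomc, and Gnrh1 and Dlx1. These shares were not set to a common depth, and the levels ranked otherwise. Pooled levels in these clusters ran from 70.3 CPM (Hdc and Prph) to 142 CPM (Agrp and Npy). The Sst cluster, with 10.4% of cells positive, had 124 CPM. The highest level, 190 CPM, was in the mixed cluster led by 4632427E13Rik and Pabpn1, with 13.2% positive. Among the lower shares were 3.2% in the Vipr2 and Prokr2 cluster and 9.09% in the Foxb1 and Cpne9 cluster, where the ligand was highest. No cell had more than 6 UMIs, and 81.0% of positive cells had 1. The richest cell held at most 1.85% of Adcyap1r1 in an IDOL KO library and at most 2.8% in a WT library.

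**Figure D3:**
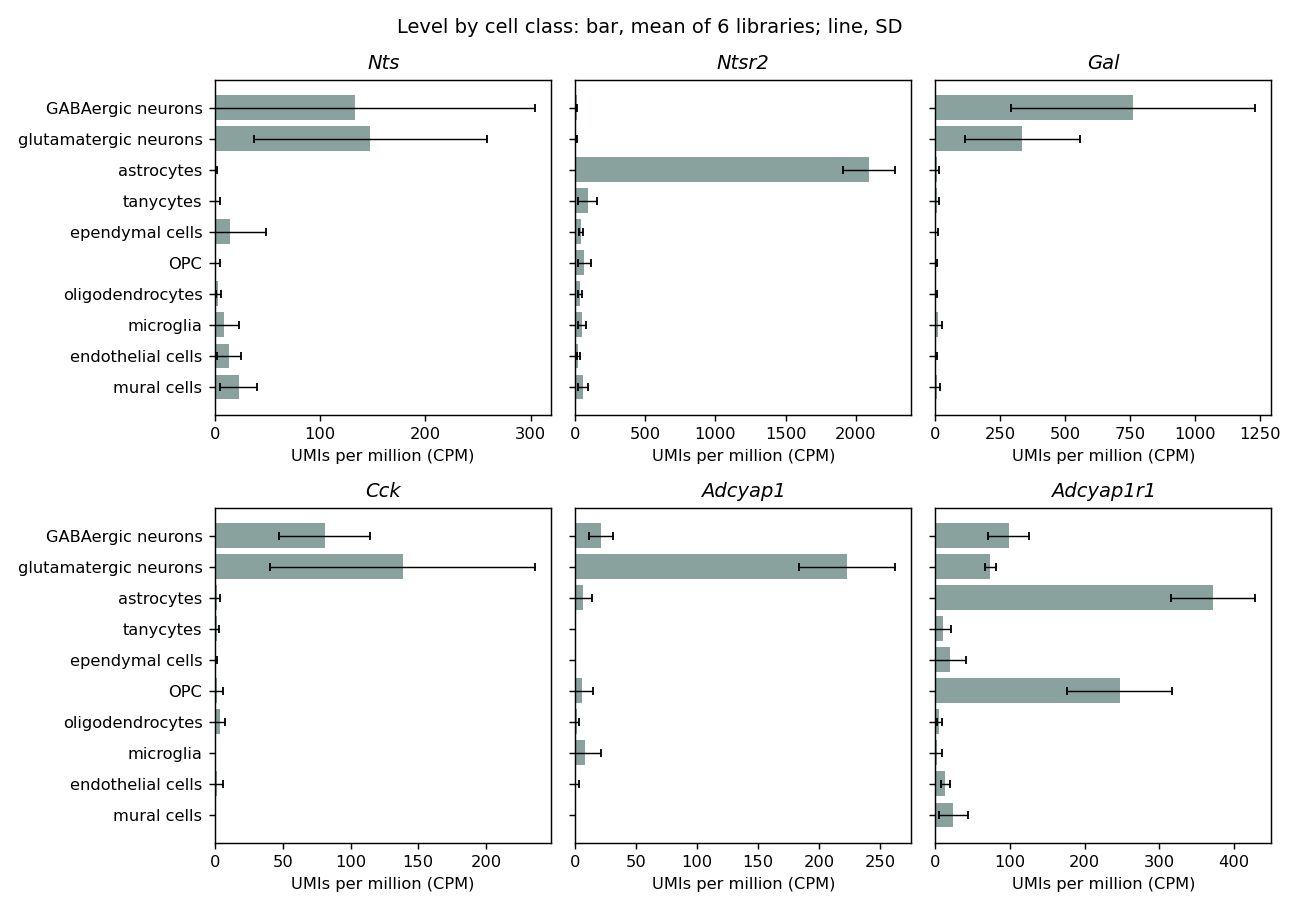
Level of each gene by cell class, in CPM, with the mean of 6 libraries (bars) and the SD (lines, not drawn below 0). Among the classes drawn, the peptides stand in neurons, Adcyap1 in the glutamatergic ones (223 CPM), and Ntsr2 in astrocytes (2094 CPM). Adcyap1r1 is highest in astrocytes (372 CPM) and OPC (247 CPM). The pituitary cells of IDOL KO 1, with Cck at 10300 CPM, are not drawn. Also left out are neurons of mixed type, newly formed oligodendrocytes, fibroblasts, perivascular macrophages, red blood cells and unnamed cells.

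**Figure D4:**
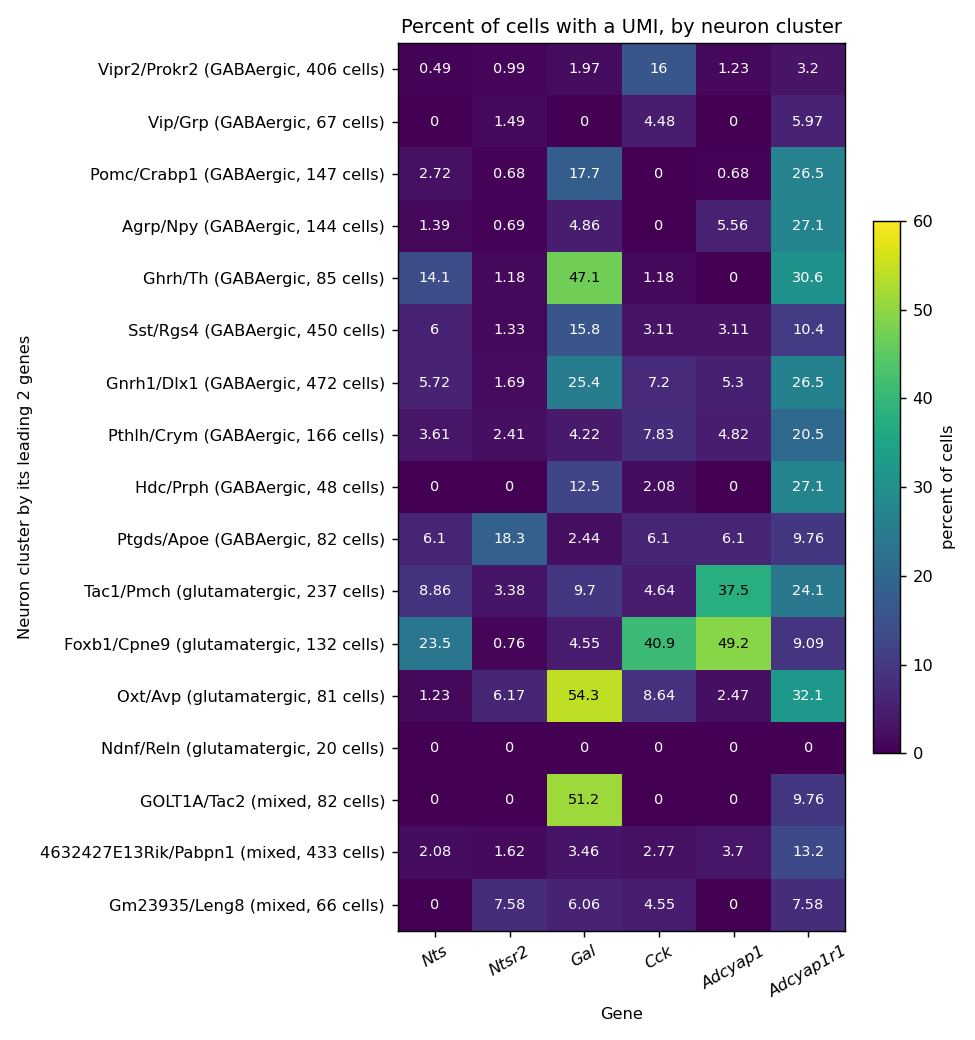
Percent of cells with a UMI of each gene (columns) in the 17 neuron clusters (rows, called by their leading 2 genes, with the transmitter type and the number of cells). Gal reaches 54.3% in the Oxt and Avp cluster, Adcyap1 49.2% and Cck 40.9% in the Foxb1 and Cpne9 cluster, and Ntsr2 18.3% in the Ptgds and Apoe cluster.

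The peptides met in some of the same cells. In the Foxb1 and Cpne9 cluster, 37 cells had both Cck and Adcyap1, which is 68.5% of the Cck cells and 56.9% of the Adcyap1 cells, from 6 libraries. In that cluster 23 cells had both Nts and Adcyap1 (74.2% of the Nts cells, 35.4% of the Adcyap1 cells), and 20 had both Nts and Cck. Of all 132 cells of the cluster, 49.2% had Adcyap1, 40.9% Cck and 23.5% Nts. Over all 3118 neurons, counting cells with at least 2 UMIs of each gene, Cck and Adcyap1 met in 23 cells (19.2% of 120 Cck cells and 23.5% of 98 Adcyap1 cells). Nts and Gal met in 15 cells (17.4% of 86 Nts cells and 5.51% of 272 Gal cells). Adcyap1 and its receptor Adcyap1r1 met in 3 neurons (3.06% of the Adcyap1 cells and 2.97% of the Adcyap1r1 cells). Counting cells with at least 1 UMI of each, they met in 43 neurons (18.1% of 238 and 8.38% of 513 cells). Of all neurons, 16.5% had Adcyap1r1 and 7.63% had Adcyap1, close to these shares. Nts and Ntsr2 met in 1 neuron by the stricter count and in 3 by the other. In astrocytes, 311 cells had both receptors, 76.8% of the 405 Adcyap1r1 cells and 25.9% of the 1203 Ntsr2 cells. Of all astrocytes, 73.4% had Ntsr2 and 24.7% had Adcyap1r1, close to these shares. Cells of a library share free RNA, whose part in these counts was not tested.

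Across the 42 clusters of at least 20 cells, the genes most alike to each of the 6 were picked by Pearson's r of log2(CPM + 10) among 11865 genes. The clusters share libraries, so r is a description. Nts was most like Cartpt, the gene of the CART peptide (r = 0.777), then Cpne4 and Nyap2. Gal was most like Prlr, the prolactin receptor (0.821), Rhov and the GABA receptor subunit Gabrq. Cck and Adcyap1 shared a neighbour in Bdnf, the growth factor, at 0.833 for Cck and 0.889 for Adcyap1. The others were Cnih3 and 2810011L19Rik for Cck, and Rgs8 and Hapln4 for Adcyap1. Ntsr2 was most like Acsbg1 (0.889), Agt, the gene of angiotensinogen, and the GABA transporter Slc6a11. Adcyap1r1 was most like the potassium channel Kcnd2 (0.83), Ctnnd2 and Grid1.

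Loss of IDOL was compared on UMIs summed per library and class, with edgeR's quasi-likelihood test across all genes and Benjamini-Hochberg adjustment at 0.05. None of the 6 genes passed in any of the 7 classes where at least 1 of them could be tested. Over all cells, 0 of 6 passed, against 0.0% of 13059 genes. In neurons it was 0 of 6, against 0.0306% of 9811 genes. In GABAergic neurons it was 0 of the 5 tested (Ntsr2 was too low), against 0.0228% of 8754 genes, and in glutamatergic neurons 0 of 5, against 0.0207% of 4830 genes. In astrocytes it was 0 of the 2 receptor genes, against 0.0477% of 4189 genes. In OPC Adcyap1r1 alone was tested and in tanycytes Ntsr2 alone, and neither passed, against 0.0% of 2126 and of 3963 genes. At an unadjusted p under 0.05, edgeR counted 2 of 6 over all cells, 2 of 6 in neurons, 2 of 5 in GABAergic neurons, 1 of 1 in OPC and 0 in the other 3 classes. Of all genes tested, 2.05% had such a p over all cells, 4.39% in neurons, 4.71% in GABAergic neurons and 6.73% in OPC. DESeq2 called 0 after adjustment in each of the 7 classes, and at an unadjusted p under 0.05 it counted 2 over all cells, 2 in neurons, 2 in GABAergic neurons, 1 in astrocytes and 0 in OPC.

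Nts was the nearest to the threshold, and its higher level in IDOL KO was known when the genes were chosen, so the values describe it and support nothing. In GABAergic neurons Nts had 85.1, 148 and 468 CPM in IDOL KO 1, 2 and 3, against 67.3, 11.4 and 16.9 CPM in WT 1, 2 and 3. The groups did not overlap, which 5.88% of the genes tested there also showed in that direction. The log2 fold change of IDOL KO over WT was 2.55 ± 0.49 (SE), with an adjusted p of 0.0918 by edgeR. With the richest cell of each library set to 0 for the 6 genes alone, it was 2.15 ± 0.34. Its adjusted p was then 0.00805 by edgeR, past the threshold. All other genes kept their richest cells, so that p is not like for like with the others. Without IDOL KO 3, the log2 fold change of Nts was 1.57 ± 0.37 (edgeR adjusted p = 0.34), and without WT 1, 3.99 ± 0.63 (edgeR adjusted p = 0.00525). Counting cells with a UMI instead of UMIs, it was 0.80 ± 0.35 (edgeR adjusted p = 0.852). In all neurons Nts had 122, 122 and 330 CPM in IDOL KO, against 77.1, 22.9 and 73.3 CPM in WT. That absence of overlap was shared by 4.92% of the genes tested in neurons, and the log2 fold change was 1.64 ± 0.34 (edgeR adjusted p = 0.133).

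In glutamatergic neurons the picture for Nts was another. The levels were 295, 38.6 and 78.7 CPM in IDOL KO 1, 2 and 3, against 133, 65.4 and 274.5 CPM in WT 1, 2 and 3. The groups overlapped, and the log2 fold change was -0.12 ± 0.45 (edgeR adjusted p = 0.974). Without IDOL KO 1 it was -1.39. The difference between the transmitter types in this respect was not tested.

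**Figure D5:**
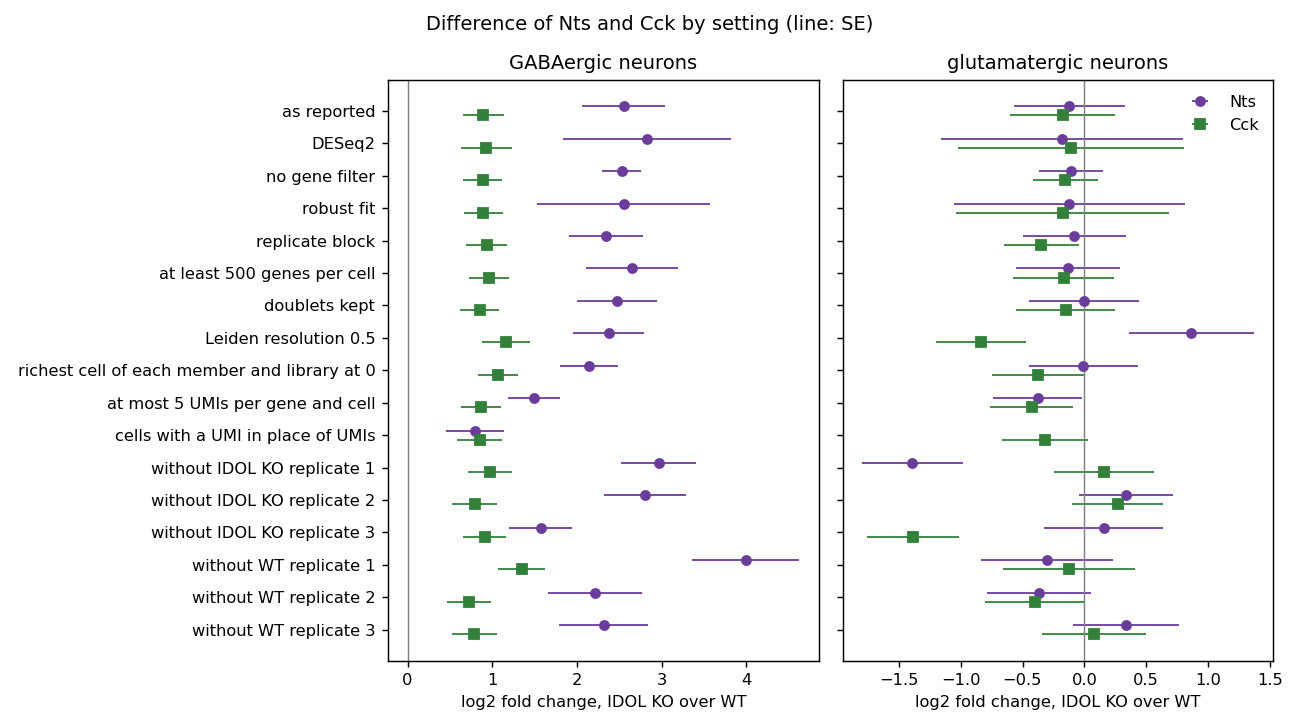
Log2 fold change of Nts (circles) and Cck (squares), IDOL KO over WT, in GABAergic (left) and glutamatergic neurons (right), with the SE as a line, as reported (top) and under each other setting (down the page). In GABAergic neurons every point is above 0, and Nts runs between 0.80 with cells counted in place of UMIs and 3.99 without WT 1. In glutamatergic neurons points lie on both sides of 0, and Nts has no value there with cells counted, since it was too low to test.

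Cck in GABAergic neurons had 94.8, 123 and 106 CPM in IDOL KO 1, 2 and 3, against 77.9, 39.9 and 44.5 CPM in WT 1, 2 and 3. The groups did not overlap there either, and 5.88% of the genes tested did the same. In IDOL KO 2, 38 of the 107 Cck UMIs lay in 13 cells of the cluster led by Pthlh and Crym. No other library had a Cck UMI in that cluster, whose part in the difference was not tested. The Vipr2 and Prokr2 cluster held 56, 21 and 10 Cck UMIs in the IDOL KO libraries, against 92, 10 and 3 in WT. It made up 19.1, 14.3 and 6.96% of IDOL KO neurons, against 12.2, 15.1 and 8.525% of WT neurons. Its part was not tested either. The log2 fold change of Cck in GABAergic neurons was 0.90 ± 0.24 (edgeR adjusted p = 0.71). Over all cells it was 1.08 ± 0.45, and without the pituitary cells 0.42 ± 0.30 (edgeR adjusted p = 1.0 for both). In glutamatergic neurons it was -0.17 ± 0.43 for Cck (edgeR adjusted p = 0.968), and -1.39 without IDOL KO 3.

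Gal and Adcyap1 showed no difference beyond the spread between libraries. In neurons Gal had 375, 1254 and 437 CPM in IDOL KO 1, 2 and 3, against 661, 773 and 293 CPM in WT 1, 2 and 3. The groups overlapped at a log2 fold change of 0.26 ± 0.33, adjusted p = 0.987 by edgeR. Without IDOL KO 2, the only library above 1000 CPM, it was -0.50. Adcyap1 in glutamatergic neurons had 149, 253 and 258 CPM in IDOL KO, against 226, 218 and 234 CPM in WT. Its log2 fold change there was -0.06 ± 0.23 (edgeR adjusted p = 0.974).

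For the receptors, Ntsr2 in astrocytes differed by -0.10 ± 0.20 on the log2 scale (edgeR adjusted p = 1.0), and the groups overlapped. Adcyap1r1 in astrocytes had 373, 377 and 436 CPM in IDOL KO 1, 2 and 3, against 402, 377 and 267 CPM in WT 1, 2 and 3. It differed by 0.18 ± 0.22 on the log2 scale (edgeR adjusted p = 1.0), with overlapping groups. In OPC it had 340, 233 and 321 CPM in IDOL KO, against 208, 227 and 154 CPM in WT. These groups did not overlap, as for 6.11% of the genes tested in OPC in that direction. The log2 fold change was 0.63 ± 0.31, with an edgeR adjusted p of 0.715.

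The share of cells with a UMI, which 1 rich cell cannot move, is given as a description with no test, since the numbers of positive cells were in view when the genes were chosen. Cck was found in 7.62, 7.89 and 8.04% of neurons of IDOL KO 1, 2 and 3, against 7.45, 4.45 and 5.57% in WT 1, 2 and 3. The groups did not overlap, and 1.46% of 11105 genes had all IDOL KO shares above the WT shares. With cells set to 500 UMIs, the Cck shares were 3.84, 4.48 and 4.67% in IDOL KO, against 4.10, 2.09 and 2.502% in WT, and overlapped.

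Nts was found in 5.39, 4.25 and 5.65% of IDOL KO neurons, against 4.88, 2.37 and 5.25% of WT neurons, and these overlapped. At 500 UMIs its shares were 3.63, 2.82 and 4.07% in IDOL KO, against 2.26, 0.706 and 2.485% in WT. Here the groups did not overlap, which 4.45% of 7704 genes showed in that direction. To reach 500 UMIs, 182 of 1657 IDOL KO neurons and 174 of 1461 WT neurons were left out. Gal, Adcyap1 and Adcyap1r1 in neurons, and Ntsr2 and Adcyap1r1 in astrocytes, had overlapping shares on all UMIs.

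The other genes of these pathways were read from 3 lists. Of 16 other receptors and relatives, 6 could be tested in neurons (Galr1, Ghrh, Ntsr1, Sort1, Vip and Vipr2), and none passed in either direction. Their median log2 fold change was 0.14, against -0.01 over all genes tested in neurons. Some receptors for the peptides were scarce in these cells: the neurotensin receptor Ntsr1 had 48 UMIs in all neurons, Galr1 80, Cckar 40 and Cckbr 41. Others were less so, with 187 UMIs for Vipr2, 263 for Sort1 and 646 for Adcyap1r1. Vip, the peptide related to PACAP, had 184, 249 and 124 CPM in IDOL KO neurons 1, 2 and 3, against 156, 412 and 277 CPM in WT, which is -0.56 ± 0.26 on the log2 scale. For Sort1, the gene of sortilin, it was 0.27 ± 0.24 (edgeR adjusted p = 0.987 for both).

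Of 12 peptide-processing genes, 10 could be tested in neurons and none passed, with a median log2 fold change of -0.08. The convertase gene Pcsk1 had 105, 81.3 and 83.3 CPM in IDOL KO neurons, against 165, 136 and 106 CPM in WT neurons. The log2 fold change was -0.61 ± 0.19, adjusted p = 0.98 by edgeR. The second convertase gene, Pcsk2, had 257, 276 and 246 CPM in IDOL KO, against 206, 219 and 196 CPM in WT. Here it was 0.33 ± 0.15, adjusted p = 0.987 by edgeR. Neither pair of groups overlapped, which 9.8% of the genes tested in neurons showed in either direction. Of 24 signalling genes below the receptors, 23 could be tested in neurons and none passed, with a median log2 fold change of 0.18. The smallest p belonged to Gnaq, a G-protein subunit, at 0.34 ± 0.17, and to Adcy5, an adenylate cyclase, at 0.47 ± 0.24 (edgeR adjusted p = 0.987 for both). None of the 3 lists had a gene past the threshold in the other 6 classes.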

How the data were processed

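Whole-number UMI counts per gene and cell barcode were deposited by the authors as 1 table of the 6 libraries. Reads were aligned with STAR 2.5.0c to mm10 (GRCm38), per the submitters' processing notes, and the counting software is not given in the sources used here. Of 13994 barcodes, 9449 had at least 300 genes and at most 20% mitochondrial UMIs, and 116 of these were removed as doublets with Scrublet. The 9333 others were clustered (scanpy 1.11.5, 2000 variable genes, 30 components, Leiden resolution 1), with 6 mixed or unnamed clusters split again. Clusters were named from listed markers, by a scoring rule chosen with the clusters in view. The 6 genes were left out of the clustering, the marker lists and the leading genes.

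UMIs were summed per library and class and tested with edgeR 4.0.16 (quasi-likelihood, filterByExpr, TMM), without the replicate number as a block; fold changes are log2 of IDOL KO over WT with SE. DESeq2 1.42.0 and other settings were alternatives. Library totals of 1514439 to 3644549 UMIs limit precision, and exact intervals and upper limits (3 counts of the total) cover counting error only. Means over libraries weigh each library alike, however few cells it gives to a cluster. Likeness between genes used genes with at least 100 UMIs. The scripts were tested on simulated data.

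The 6 genes and all gene lists were chosen with earlier results of these data known. Named besides the 6 genes are listed pathway genes that passed, or otherwise the 2 with the smallest p per list in neurons, the 3 genes most alike to each of the 6, and leading and marker genes of clusters. The same-numbered libraries were not treated as pairs. The permutation tests planned for the shares of positive cells are not given, since those shares were in view when the genes were chosen.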

Additional observations from a re-analysis of the deposited data

Results flagged for a closer look

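All 6 genes had UMIs in the 4661 barcodes that were left out of every comparison for few genes, many mitochondrial UMIs or as doublets, which is why they are given here. Nts had 60 UMIs there, Gal 130, Cck 42 and Adcyap1 45, at most 8.52% of each peptide's UMIs. Both receptors had more. Ntsr2 had 1523 UMIs in these barcodes, 32.5% of all its UMIs, at 677 CPM against 212 CPM in the kept cells. Adcyap1r1 had 369 UMIs, 20.9% of its total, at 164 CPM against 93.4 CPM in the kept cells. The summed level of 9 astrocyte markers was 8655 CPM in the left-out barcodes and 3690 CPM in the kept cells, and its part in the receptor values was not tested.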

How the results depend on the processing

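Of 113 counts of the 6 genes called under other settings, 102 stayed at 0 and 11 became 1, each through Nts. In neurons Nts was the 1 gene called without a gene filter (log2 fold change 1.64, edgeR adjusted p = 4.16e-13) and with the replicate number as a block (1.60, edgeR adjusted p = 0.0026). In GABAergic neurons it was called at a Leiden resolution of 0.5 (2.38, edgeR adjusted p = 0.0122), without a gene filter (2.53, edgeR adjusted p = 1.88e-24), with the replicate number as a block (2.34, edgeR adjusted p = 0.0407) and with the richest cells at 0 (2.15, edgeR adjusted p = 0.00805). In that last setting only the 6 genes were changed, and all other genes kept their richest cells. Nts was not called in GABAergic neurons with the robust fit (edgeR adjusted p = 0.969) or DESeq2 (adjusted p = 1.0). Leaving out 1 library, the count ran from 0 to 1 in neurons and in GABAergic neurons, called without IDOL KO 1, IDOL KO 2 or, in GABAergic neurons, WT 1, and the range of Nts was 1.01 to 1.97 in neurons and 1.57 to 3.99 in GABAergic neurons. The cause of these changes was not tested. Deviations of same-numbered libraries from their group means correlated at -0.064, -0.012 and 0.157 in neurons. Over all cells the correlations were 0.253, -0.153 and 0.226. With only 3 libraries per group, these values cannot decide whether the replicate numbers pair libraries, and the labels state no pairing.

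The count of all genes called was small and moved easily. Over all cells it was 0, against 4 with DESeq2, 2 with cells counted and 1 with at most 5 UMIs per gene and cell, without a filter or with the replicate block. In neurons it was 3, against 25 without a filter, 6 with the block, and 1 with at most 5 UMIs or the robust fit. In GABAergic neurons it was 2, against 23 without a filter, 6 at resolution 0.5, 4 with the block, and 1 with at most 5 UMIs, cells counted or the robust fit. In glutamatergic neurons it was 1, against 15 without a filter, 2 with doublets kept, and 0 with at most 5 UMIs or cells counted. In astrocytes it was 2, against 8 without a filter, 1 with the robust fit, and 0 with DESeq2, at least 500 genes per cell, at most 5 UMIs or cells counted. Without a filter it was 2 in OPC and 6 in tanycytes, against 0. Leaving out 1 library gave 0 to 1 over all cells, 1 to 8 in neurons, 2 to 5 in GABAergic neurons, 0 to 5 in glutamatergic neurons, 0 to 3 in astrocytes, 0 to 2 in OPC and 0 to 1 in tanycytes.

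Of 417 fold changes under other settings, 363 kept their sign and their side of the threshold and 43 changed sign, none of these with an adjusted p under 0.05. With cells counted in place of UMIs the log2 fold change was 0.002 for Ntsr2 and -0.01 for Gal over all cells, -0.004 for Gal and 0.085 for Adcyap1 in neurons, -0.092 for Gal in GABAergic neurons, 0.20 for Adcyap1 and -0.17 for Adcyap1r1 in glutamatergic neurons, and 0.05 for Ntsr2 in astrocytes. With at most 5 UMIs per gene and cell it was 0.09 for Adcyap1 in neurons, 0.17 for Adcyap1 in glutamatergic neurons and -0.23 for Ntsr2 in tanycytes. With the richest cells at 0 it was 0.092, 0.15 and -0.57 for these. At resolution 0.5 it was 0.87 for Nts, -0.68 for Gal and 0.60 for Adcyap1 in glutamatergic neurons, and -0.40 for Ntsr2 in tanycytes. It was -0.11 for Adcyap1r1 in glutamatergic neurons with doublets kept, and -0.13 for Ntsr2 in tanycytes with the replicate block. Leaving out 1 library gave -0.31 to 0.15 for Ntsr2, -0.66 to 0.41 for Gal and -0.36 to 0.041 for Adcyap1 over all cells. In neurons it gave -0.50 to 0.55 for Gal, -0.20 to 0.13 for Adcyap1 and -0.025 to 0.38 for Adcyap1r1, and in GABAergic neurons -0.70 to 0.54 for Gal and -0.011 to 1.09 for Adcyap1. In glutamatergic neurons the range was -1.39 to 0.34 for Nts, -1.39 to 0.27 for Cck and -0.20 to 0.16 for Adcyap1, and in tanycytes -0.72 to 0.65 for Ntsr2.

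Of 77 differences in shares, 12 changed sign. At 500 UMIs per cell the difference, IDOL KO minus WT, was 0.232 points for Adcyap1 and 0.193 for Adcyap1r1 in neurons, and 0.957 for Ntsr2 in astrocytes. For Adcyap1 in neurons it was 0.294 points at resolution 0.5 and 0.00417 with the richest cells at 0. Leaving out 1 library gave -1.01 to 0.438 points for Adcyap1 and -3.16 to 1.39 for Adcyap1r1 in neurons, and -2.93 to 0.723 for Ntsr2 in astrocytes. The 1 alternative chosen after seeing the data left out the pituitary cells, and it moved Cck over all cells to 0.42.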
